A study of Macaca mulatta with 38 samples.

Results

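The barcodes described here had reads in exactly 1 of 38 libraries, and that library was a B library of day 119 or later. There were 6190 of them among 44423 barcodes of the table. They made up 21.9% of the 28244 barcodes listed in any B library from day 119 on, 13.9% of the table and 34.9% of its 17715 single-library barcodes. They were chosen by their own counts, from which columns held reads and which held 0. Their number, read share and recurrence are therefore given as descriptions, with no test. Of the other barcodes of these B libraries, 17425 were listed in 2 or more B libraries (day 32 included) and are called recurrent, and 4629 were listed on 1 later B day and also in another lineage.

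A lentiviral barcode is a short DNA tag integrated into the genome of a stem or progenitor cell, and every descendant carries it. A B cell barcode that returns in later samples marks a clone whose B cells are still in the blood, made anew in the marrow or kept as long-lived cells. Many B cell clones are small, and a blood sample holds only some of them, so a barcode can be missing from a later sample because its cells are gone or because none was drawn or read. PCR copies of one template are counted as separate reads where no molecular identifiers are used, so reads can outnumber templates.

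All 38 libraries came from peripheral blood of 1 rhesus macaque, ZL34, a male of 4 years, and no untreated or unbarcoded control is among them. Its CD34+ cells, mobilised with G-CSF and a second agent that the labels spell AMD1300, were exposed to the barcoded lentivirus library at a multiplicity of infection of 25 and returned after TBI, and cidofovir was given weekly at 5 mg/kg. At such a multiplicity a cell may carry several barcodes, so barcodes are not the same as clones. The labels name 8 B libraries (days 32, 119, 187, 266, 365, 393, 494 and 553), 9 T, 7 Gr, 7 Mono, 5 nRBC, 1 EOS and 1 CD34p. Each lineage and day has 1 library, so no spread between biological replicates exists, and cell type labels were taken as given because barcode counts hold no marker genes. Reads of kept barcodes ran from 789584 to 3365960 in the 7 later B libraries. No count from 1 to 100 occurs in the table, so a 0 is read here as at most 100 reads, and 101 reads as the lowest kept count. That reading is inferred from the values.

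Printed here are the 2 members with the highest read count in each later B library, named by day, because they are the members farthest above the lowest kept count. Each is printed 5′ to 3′ up to the sequencing adapter, or over its first 33 bases where no intact adapter was found (B119-b). Lower case marks the library tag that nearly all barcodes share, and capitals mark the variable part that identifies the barcode. In B119-b the end of the variable part is not known, and the capitals are the bases after the tag up to base 33.
B119-a: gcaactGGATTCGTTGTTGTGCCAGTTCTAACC
B119-b: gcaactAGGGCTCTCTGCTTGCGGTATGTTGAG
B187-a: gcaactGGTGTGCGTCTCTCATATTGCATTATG
B187-b: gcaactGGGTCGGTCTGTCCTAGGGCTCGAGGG
B266-a: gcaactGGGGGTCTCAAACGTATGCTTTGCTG
B266-b: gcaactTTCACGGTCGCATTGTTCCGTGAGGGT
B365-a: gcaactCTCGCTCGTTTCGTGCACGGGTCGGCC
B365-b: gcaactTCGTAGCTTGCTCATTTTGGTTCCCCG
B393-a: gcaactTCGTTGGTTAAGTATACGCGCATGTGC
B393-b: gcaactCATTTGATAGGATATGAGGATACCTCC
B494-a: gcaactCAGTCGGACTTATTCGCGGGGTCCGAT
B494-b: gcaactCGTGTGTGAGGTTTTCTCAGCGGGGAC
B553-a: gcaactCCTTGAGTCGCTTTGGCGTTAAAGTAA
B553-b: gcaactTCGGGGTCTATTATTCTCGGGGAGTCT

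Single-day barcodes were a minority of each B library, and their number differed widely between days. The library of day 119 held 666 of them, 7.98% of its 8349 listed barcodes (exact Clopper-Pearson 95% interval 7.40 to 8.58). Day 187 held the most, 1978 or 14.7% of 13465 (14.1 to 15.3), and day 266 held 978 or 10.9% of 8981 (10.3 to 11.6). Day 365 held 521 or 6.29% of 8288 (5.77 to 6.83), day 393 held 1221 or 10.5% of 11624 (9.95 to 11.1), and day 553 held 803 or 10.1% of 7935 (9.46 to 10.8). Day 494 stood lowest with 23 of 3296, or 0.698% (0.443 to 1.05), and it is also the B library with the fewest reads. These intervals hold the counting error of barcode numbers alone. They do not cover how listing depends on the reads of a library and on the lowest kept count.

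The members' summed share of reads was smaller than their share of the barcode list on every later B day. The day 119 library had 5.61% of its reads in members, the day 187 library 9.12%, the day 266 library 6.53% and the day 365 library 2.73%. Members held 5.17% of the day 393 reads, 0.405% of the day 494 reads and 3.82% of the day 553 reads. Over the 7 libraries this is a mean of 4.77% ± 2.80 (SD over days, n = 7), against 91.3% ± 4.83 for recurrent barcodes and 3.96% ± 2.11 for barcodes seen on 1 B day and in another lineage. Recurrent barcodes thus supplied between 84.2% of reads, at day 187, and 98.96%, at day 494. Recurrent barcodes listed in no other lineage held 9.08%, 10.3%, 8.74%, 5.66%, 8.01%, 2.98% and 4.97% of reads on the same days. The members held less than these B-only recurrent barcodes on 7 of 7 days. Both shares were highest at day 187 and lowest at day 494.

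Most members had counts just above the lowest kept count. The median member had 133 reads, the lowest had 101, and 90% had at most 226. Of the 6190, 5149 (83.2%) had under 202 reads, which is 2 times the lowest kept count, 854 (13.8%) had 101 to 110 reads, and 87 had exactly 101. Those with 101 reads are the members just inside the limit. 10 members had over 500 reads and 2 had over 1000.

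Median counts of members were lower than those of recurrent barcodes in the same library on all 7 days, and the ranges overlapped. The median member of day 119 had 153.5 reads, against 182 for recurrent barcodes. The medians were 127 reads against 148 for day 187, 207 against 227 for day 266 and 118 against 201 for day 365. They were 123 reads against 157 for day 393, 122 against 174 for day 494 and 153 against 173 for day 553. The gap was widest at day 365 and narrowest, in relative terms, at day 266. Under 202 reads lay 85.6% of members against 56.3% of recurrent barcodes at day 119, 89.9% against 56.7% at day 187, and 93.1% against 50.03% at day 365. The shares were 92.5% against 53.4% at day 393, 91.3% against 60.4% at day 494 and 92.4% against 62.5% at day 553. Day 266 stood apart, with 43.1% of members and 28.5% of recurrent barcodes under 202 reads. Barcodes seen on 1 B day and in another lineage had medians close to those of the members, from 122 reads at day 365 to 208 at day 266. Recurrent barcodes listed in no other lineage were also close, with medians of 161, 130, 213, 134, 126, 135 and 158 reads in order of day. Of these B-only recurrent barcodes, 78.0%, 79.6%, 37.1%, 78.8%, 80.9%, 81.5% and 87.3% lay under 202 reads. Low counts were therefore not particular to the members.

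In 5 libraries read counts gathered round preferred values, and the members there sat mostly round or below the tallest peak. The peaks were located on recurrent barcodes alone, in histograms smoothed over 11 reads, after the shape had been seen. The first peak is the tallest point of this histogram, so a lower peak near or under the lowest kept count is not covered. At day 187 the first peak lay at 125 reads and the next at 245, at day 266 at 216 and 435, at day 393 at 119 and 239, and at day 553 at 160 and 311. The second peak was thus at 1.96, 2.01, 2.01 and 1.94 times the first on these 4 days. At day 119 the peaks lay at 164 and 230 reads, a ratio of 1.40, and the members had a further group at the lower edge, 158 of them with 101 to 120 reads. At day 266 counts also fell from the lower edge before they rose to the peak. There 81 members and 355 recurrent barcodes had 101 to 120 reads, against 62 and 262 with 121 to 140. Days 365 and 494 had no first peak, since their histograms were highest at the lowest kept counts and fell from there.

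In the 5 libraries with a first peak, 5120 of 5646 members (90.7%) had counts up to the low point after it, against 23538 of 40566 listings of recurrent barcodes (58.0%). At day 187 these were 1754 of 1978 members (88.7%) and 54.2% of recurrent barcodes, with the low point at 170 reads. At day 266 they were 924 of 978 (94.5%) and 68.0%, with the low point at 298. The first peak of day 266, at 216 reads, was the highest of the 5, and these 924 include the members at the lower edge. At day 393 they were 1112 of 1221 (91.1%) and 51.2%, at day 553 759 of 803 (94.5%) and 64.2%, and at day 119 571 of 666 (85.7%) and 56.5%. Within 20% of the first peak lay 54.5% of the members of day 119, 85.2% of day 187, 67.2% of day 266, 84.8% of day 393 and 74.8% of day 553. A second, small group of members could be seen at the second peak. At day 187, 15 members had 201 to 220 reads, 46 had 221 to 240, 62 had 241 to 260 and 37 had 261 to 280. The column sum divided by the first peak was 12004 for day 119, 24380 for day 187, 14326 for day 266, 26377 for day 393 and 21037 for day 553. What a step of this size stands for, such as 1 template, was not tested.

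Few members were abundant. B119-a had 3838 reads, or 0.195% of its library (exact 95% interval 0.189 to 0.201), 25.0 times the median member of that day. It ranked 11 among 8349 barcodes of the library and was listed nowhere else, neither at day 187 in B nor in T, Gr or Mono of the same day. The interval of its share treats reads as independent, which PCR copies are not, so it is likely too narrow. The next highest members of any day were B266-a with 1233 reads (0.0398%) and B266-b with 994 (0.0321%). They ranked 108 and 221 of 8981. B119-b had 602 reads (0.0306%), B187-a 522 (0.0171%) and B187-b 520 (0.0171%). These lie at about 4 times the median member of their own library, at 3.92, 4.11 and 4.09 times.

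The top members of the 4 last B libraries were lower still. B365-a had 387 reads (0.0152%) and B365-b 386 (0.0152%). B393-a had 434 (0.0138%) and B393-b 375 (0.0119%), B553-a 496 (0.0147%) and B553-b 441 (0.0131%). In the shallow library of day 494, B494-a had 298 reads and B494-b 215, which are larger shares, 0.0377% and 0.0272%. No top member after day 266 reached 500 reads, and the best placed of them, B494-a, ranked 663 in its library.

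In each of the 7 libraries, the share of barcodes listed nowhere else was lower with over 200 to 500 reads than with up to 200, and lower again with over 500 to 1000. Among barcodes with up to 200 reads, 11.4% of those of day 119 were members, 20.7% of day 187, 15.1% of day 266, 10.7% of day 365, 16.2% of day 393, 1.05% of day 494 and 13.9% of day 553. Of those with over 200 to 500 reads the members were 3.16%, 5.04%, 10.8%, 1.39%, 2.76%, 0.184% and 3.20% on the same days. Day 266 is the exception to a sharp drop between these classes, and its first peak of 216 reads falls in the upper one. Of 4492 barcode listings with over 500 to 1000 reads, 8 were members. The highest classes hold few barcodes. In the class of over 1000 to 2000 reads the share fell to 0 at days 119 and 187. It stayed at 0 at days 365, 393, 494 and 553, and rose at day 266 only. Over 1000 to 2000 reads, 1 of 936 listings was a member, B266-a, at 0.524% of that class on day 266 against 0.484% of the class below. Over 2000 reads, 1 of 161 was a member, B119-a, which was 1 of 14 at day 119 (7.14%).

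Return in the next B library followed the same order. Of barcodes with up to 200 reads at day 119, 41.7% were listed again at day 187 (exact 95% interval 40.3 to 43.0), against 65.4% of those with over 200 to 500 reads and 88.8% of those with over 500 to 1000. Of the lowest class at day 187, 22.4% returned at day 266 (21.6 to 23.3), against 47.5% and 81.7% of the classes above it. From day 266 to day 365 the shares were 27.7%, 40.5% and 83.8%, and from day 365 to day 393 they were 40.8%, 71.5% and 94.4%. From day 393 to the shallow library of day 494 they were 8.20%, 32.7% and 78.5%, and from day 494 to day 553 they were 60.0%, 87.0% and 98.9%. Among these 3 classes, the lower one returned less often than the next on each of the 6 intervals. Of barcodes with over 2000 reads, 12 of 14 returned from day 119 to day 187, and B119-a was 1 of the 2 that did not. From days 187, 266, 365, 393 and 494 all 19, 26, 37, 41 and 9 barcodes of this class returned.

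Counts also rose with the number of B libraries that listed a barcode. At day 187 the median was 127 reads for the members, 131 for barcodes in 2 B libraries, 136 for 3, 144 for 4, 227 for 5, 263 for 6, 400 for 7 and 471 for the 357 barcodes in all 8. At day 393 it was 123 reads for the members, 126, 132, 143, 230, 339 and 515 for 2 to 7 libraries, and 634 for 8. Members and barcodes of 2 or 3 B libraries lay near the same first peak, and the step to the second peak came between 4 and 5 libraries on both days. At day 553 the medians were 153 for the members, 157 for 2 libraries, 173 for 5 and 394 for 8.

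Just outside the rule lay 5605 barcodes, listed in exactly 2 libraries with at least 1 of them a later B library. In 5342 of them (95.3%) the lower of the 2 counts was under 202 reads, and in 1472 (26.3%) it was 101 to 110. Their partner library was T for 1178, Mono for 835, Gr for 710 and nRBC for 1. The other 2881 were listed in 2 B libraries, 1545 of them in day 32 and a later day and 1336 in 2 later days.

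The lowest kept count of 101 reads is a different share of each library, so the members were counted again with 1 share floor for all 38 libraries. The floor was 0.0132% of reads, the share that 101 reads make of the smallest library, T of day 494. It kept counts from 105 reads at day 494, but only from 260 at day 119 and from 444 at day 553. 1753 barcodes then met the rule, and 99 of them, or 5.65%, were members without the floor. Those 99 are the 1.60% of the 6190 members that passed the floor.

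The order of the days changed with the floor. Day 494, lowest without it at 23 members and 0.698%, had 555 of 3127 barcodes, or 17.7% (exact 95% interval 16.4 to 19.1), and 10.4% of reads, the highest read share of the 7 days. Day 119 had 459 of 2023 (22.7%), day 266 305 of 1747 (17.5%) and day 187 154 of 1416 (10.9%). Days 365, 393 and 553 were lower, with 123 of 1912 (6.43%, 5.37 to 7.63), 120 of 1708 (7.03%, 5.86 to 8.34) and 37 of 897 (4.12%, 2.92 to 5.64). Without the floor, days 365 and 393 had 6.29% and 10.5%. The small number at day 494 did not remain under the floor, but only 20 of its 555 barcodes were also single-day without it. The floor removed few barcodes from the day 494 list and most from the other B lists, which favours a higher number there. The cause of the small number was not tested. Recurrent barcodes were 71.4% of the list at day 494 under the floor, against 98.4% without it.

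In T, Gr and Mono the same rule found fewer barcodes. T libraries of day 119 or later held 2899 single-library barcodes, Gr 162 and Mono 99. Matched by day, single-library barcodes of day 187 were 14.7% of the B list against 7.37% of the T list, those of day 266 10.9% against 7.32%, those of day 365 6.29% against 3.82% and those of day 393 10.5% against 7.90%. They were 0.698% in B against 0.196% in T at day 494 and 10.1% against 5.47% at day 553. Day 119 was the exception, with 7.98% in B against 15.9% in T. B was therefore the higher on 6 of 7 days, and by share of reads it was higher on 6 of 7 as well. B also had the longer list on the same 6 days, with 13465 barcodes against 2158 in T at day 187. At day 119 the T list was the longer, with 8450 against 8349. The rule read 9 T and 8 B libraries, so the lineages had unequal chances of a second listing. Whether these differences bear on the shares was not tested. The T library of day 494 listed 2 such barcodes and was, like B of that day, the smallest of its lineage, at 766039 reads. In Gr, single-library barcodes were 1.52% of the list at day 187 and 1.77% at day 266, and in Mono 1.62% and 1.34%, with 0 in either lineage at days 365, 494 and 553, when these libraries listed 12 to 197 barcodes each. The share was also at or near 0 in the longer lists of day 119, with 4 of 2013 barcodes in Gr (0.199%) and 0 of 808 in Mono. All these shares use the counts as deposited, without the common floor. No test was made, since the rule set which B barcodes were counted.

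Nearly all members carried the library tag. It opened the sequence in 6099 of the 6190, stood after 1 base in 87 and was at neither place in 4. In 4823 (77.9%) the tag stood at the start and the adapter after 33 bases, which leaves 27 variable bases. The adapter followed after 32 bases in 320 members and after 34 in 588, 8 had it before base 20, and 149 held no intact adapter. No 2 sequences of the table differed by fewer than 3 mismatches and no 2 members by fewer than 6, counting substitutions only, so that sequences shifted by an inserted or lost base are not covered. No member had a barcode of higher count in its own library within 6 mismatches, 7 had one within 7, and 5186 (83.8%) within 12. Mismatches were counted base by base over the 50 bases, the shared tag and adapter included. B119-a differed from its nearest higher barcode by 18 bases.

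These sequence features were not used by the rule and were tested over the 7 later B libraries. The mean GC content of the variable part was 52.6% in members against 53.4% in recurrent barcodes at day 119, 53.1% against 53.7% at day 187, 52.7% against 53.7% at day 266, 54.5% against 53.9% at day 365, 53.2% against 53.7% at day 393, 54.0% against 53.5% at day 494 and 52.7% against 53.6% at day 553. The mean difference was −0.38 percentage points (SD 0.651, n = 7, lower on 5 of 7 days, two-sided exact sign-flip permutation p = 0.172, adjusted p = 0.375). The usual tag and adapter position was found in 71.3% of members against 79.0% of recurrent barcodes at day 119 and in 73.6% against 79.5% at day 553. At day 494 members were higher, at 82.6% against 78.7%, but that library held only 23 members, against 521 to 1978 in the others. On the other 4 days the shares were closer. The mean difference was −1.94 points (SD 3.81, n = 7, lower on 6 of 7 days, exact permutation p = 0.25, adjusted p = 0.375). Neither difference exceeded the spread between days, which does not show that the sequences were alike. Barcodes within 2 mismatches of a sequence with 10 or more times their count were 0 in both sets on all days, so the third comparison gave no information. The smallest p that 7 libraries allow is 0.0156, the adjustment covered 3 comparisons, and recurrent barcodes were partly the same from day to day.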

How the data were processed

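The data are barcode reads from peripheral blood DNA of 1 animal, at labelled days. Per the labels' protocols, 200 ng of DNA went into 28 cycles of barcode PCR before indexed primers were added. The authors deposited read counts for 44423 sequences, each 50 bases long, in 38 libraries. That these are raw counts was judged from the values, all whole, and from column sums that differ (766039 to 3832849). For the barcode caller and the limit on low counts, no statement was found in the labels or the file header.

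Members were found by the stated rule on counts as deposited, with no scaling. Shares are percent of a column sum. Intervals are exact Clopper-Pearson at 95%. GC content, tag position and mismatches were read from the sequences, and differences between members and recurrent barcodes were tested over 7 libraries with exact sign flips (a permutation test, two-sided), with Benjamini-Hochberg adjustment over 3 measures at a threshold of 0.05. No count model was fitted, because the rule itself sets the difference between libraries. Histogram peaks were located on recurrent barcodes with a moving mean over 11 reads, a step chosen after seeing the data. The first peak was taken as the tallest point of the smoothed histogram. Serial libraries of 1 animal are not biological replicates, so the p-values set the mean difference only against its variation between days of this animal. Each library had the same weight in these tests, from 23 members at day 494 to 1978 at day 187. The labels name no batch. The alternatives were other limits on counts, summing of like sequences, fewer libraries in the rule, other sets for comparison and leaving out each B library. The members and comparisons were chosen with earlier results of these data known. The text names the 2 members with the most reads in each later B library. Scripts were tested on simulated data and run in Python 3.11.15 with numpy 2.4.6, pandas 2.3.3 and scipy 1.17.1.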

Additional observations from a re-analysis of the deposited data

Results flagged for a closer look

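Of 8 measures compared over the 7 later B libraries, 3 had 1 library far from the others by Dixon's criterion, which marks about 1 in 20 groups by chance. All 3 are read counts of members, which the choice of members used, so the criterion serves here to pick values to look at and not as a test. The median member of day 266 had 207 reads, against 118 to 153.5 in the other libraries. The share of members under 202 reads was 43.1% at day 266, against 85.6% to 93.1% in the others. These values describe the same shift in counts, which recurrent barcodes of day 266 share (median 227 reads, against 148 to 201). The highest count of a member was 3838 reads at day 119, that of B119-a, against 298 to 1233 in the others. The cause was not tested.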

How the results depend on the processing

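The number of single-day B barcodes depended on the limit below which a count is taken as 0 and on which libraries the rule reads. It was 6190 as reported, 4306 with counts of 200 or fewer as 0, 856 with counts of 500 or fewer as 0 and 1753 with the common share floor. The median share of reads per library was 4.88% with the limit of 200 reads, 2.66% with that of 500 and 2.56% with the common share floor, against 5.17% as reported. The median share of listed barcodes was 11.9%, 13.3% and 10.9% in the same order, against 10.1% as reported. With 500 reads, 10 of the 856 were members without that limit. Read over B libraries only it was 10819, with a median of 16.8% of listed barcodes and 9.81% of reads per library. With day 32 left out it was 10198, with medians of 15.8% and 8.70%. Of the 4008 barcodes that this added, 2312 were listed in B of day 32. Summing sequences with the same variable part, or within 1 or 2 mismatches, changed nothing, since no such sequences exist. Without nRBC, EOS and CD34p it was 6191. Leaving out 1 later B library gave 4908 to 6195, with medians of 9.68% to 10.95% of listed barcodes and 4.80% to 5.75% of reads. The differences in GC content and tag position kept their sign and stayed above the threshold under every alternative tried, with an adjusted p down to 0.0938 for the usual tag and adapter position without day 494 (exact permutation p = 0.0312). The share of members up to the low point after the first peak was 90.7% to 90.9% with other smoothing or with all barcodes, both chosen after seeing the data. The sequence tests compared both sets within each library, and no further replicate block was fitted, since the labels carry no replicate numbers. A 0 can hide up to 100 reads, so absence from the other 37 libraries is not shown for any member.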
